A study of Mus musculus with 32 samples.

Results

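The genes described here are 8 markers of the striatal cholinergic interneuron, and their levels were measured in whole striatum by RNA sequencing. They were chosen by name: Chat, Slc5a7, Slc18a3, Slc17a8, Ache, Lhx8, Isl1 and Gbx2. All 8 are among the 54532 genes in the count table, and all 8 passed the filter on low counts that left 16610 genes for testing.

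Striata were taken from 32 mice at 6 months of age, 8 of each of 4 genotypes, on a C57BL/6J background. Wild-type mice carried neither alteration, and Msh3-/- mice were homozygous for a CRISPR-made deletion in Msh3, the mismatch repair gene needed for the CAG repeat to expand in somatic cells. zQ175 mice carried the knock-in Htt allele with a highly expanded CAG repeat, a mouse model of Huntington's disease, and zQ175:Msh3-/- mice carried both. Each group held 4 males and 4 females, except zQ175:Msh3-/- with 5 males and 3 females. The crosses described in the methods give the zQ175 mice at most 1 copy of the knock-in allele. Both alterations were carried in the germline, and each library came from the striatum of 1 mouse, in which cholinergic interneurons are a small minority.

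Cholinergic interneurons are large, tonically active neurons that supply the striatum with most of its acetylcholine. Choline enters their terminals through the transporter Slc5a7, choline acetyltransferase (Chat) joins it to an acetyl group, and the vesicular transporter Slc18a3 loads the product into synaptic vesicles. Ache breaks down the released acetylcholine. The cells also express Slc17a8, the vesicular glutamate transporter VGLUT3. Lhx8, Isl1 and Gbx2 are homeodomain transcription factors of the lineage, and Isl1 is known from direct-pathway spiny neurons as well.

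Between 12359347 and 25030335 counts were assigned to genes in each mouse. Values per gene below are CPM, counts divided by the TMM-scaled library size, and levels of different genes are compared only as TPM, which is normalized for length. Msh3 lay at 22.9 to 27.5 CPM in wild-type and 22.8 to 27.4 in zQ175 mice, against 10.4 to 13.6 in Msh3-/- and 11.1 to 14.2 in zQ175:Msh3-/- mice, and gene counts include reads from outside the deletion. Htt ranged from 152 to 190 CPM in wild-type, 154 to 176 in Msh3-/-, 129 to 147 in zQ175 and 132 to 157 in zQ175:Msh3-/- mice. The 9 spiny neuron markers, which define striatal tissue, summed to 7633 to 9357 CPM in wild-type and 7531 to 9718 in Msh3-/- mice. Their sum was 4086 to 5347 CPM in zQ175 and 4271 to 5281 in zQ175:Msh3-/- mice.

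Markers of neighbouring tissue differed widely between mice of 1 genotype. The summed level of 5 cortex markers, among them Slc17a7 and Tbr1, ranged from 43.8 to 290 CPM in wild-type (median 185), from 45.1 to 437 in Msh3-/- (median 205), from 33.8 to 371 in zQ175 (median 254) and from 123 to 630 in zQ175:Msh3-/- mice (median 308). The sum of 6 choroid plexus markers ranged from 32.8 to 3014 CPM over all mice. The 4 markers of brainstem and spinal cholinergic neurons together reached at most 0.315 CPM in any mouse. Because the cortex sum moved with several of the 8 genes, their values are also given from a fit with its log2 level as a covariate, an alternative chosen after the data were seen.

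In GENCODE M21 on GRCm38, Chat (ENSMUSG00000021919) is read from the minus strand and spans 32408203 to 32465989 of chromosome 14. Slc18a3 (ENSMUSG00000100241) is a single-exon gene on the same strand, from 32462438 to 32464850, inside an intron of Chat, an arrangement known as the cholinergic locus. The pair shared 0 exon bases, so reads on exons can be assigned to either. Slc5a7 (ENSMUSG00000023945) is on chromosome 17 from 54273590 to 54299034, and Isl1 (ENSMUSG00000042258) on chromosome 13 from 116298281 to 116309689. Slc17a8 (ENSMUSG00000019935) is on chromosome 10 from 89574020 to 89621253, Ache (ENSMUSG00000023328) on chromosome 5 from 137287519 to 137294466, Lhx8 (ENSMUSG00000096225) on chromosome 3 from 154306294 to 154330659 and Gbx2 (ENSMUSG00000034486) on chromosome 1 from 89927956 to 89931179. Gbx2 shared 946 of its 2177 exon bases with D130058E05Rik on the opposite strand, and whether counting used strand is not given in the sources used here, so reads of the pair cannot be told apart. The same holds for 98 exon bases that Ache shared with Gm42456 on the opposite strand.

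The sequences just before the start sites of the 3 genes of acetylcholine synthesis and loading, and of Isl1, are shown because the first 3 were lower and Isl1 was higher with zQ175 (values below). They are RefSeq sequences on GRCm38.p6, read 5′ to 3′ on the minus strand, which is the strand of all 4 genes. Capitals mark TAAT, the core that many homeodomain proteins bind, and TGACG, the core of the cyclic AMP response element, on either strand (ATTA and CGTCA on the other). Both motifs were chosen with the matches in view.
Chat, chr14:32465990-32466159: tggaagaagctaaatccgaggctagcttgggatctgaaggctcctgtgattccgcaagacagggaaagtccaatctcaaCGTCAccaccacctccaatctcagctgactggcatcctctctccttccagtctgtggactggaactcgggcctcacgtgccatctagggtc
Slc18a3, chr14:32464851-32465100: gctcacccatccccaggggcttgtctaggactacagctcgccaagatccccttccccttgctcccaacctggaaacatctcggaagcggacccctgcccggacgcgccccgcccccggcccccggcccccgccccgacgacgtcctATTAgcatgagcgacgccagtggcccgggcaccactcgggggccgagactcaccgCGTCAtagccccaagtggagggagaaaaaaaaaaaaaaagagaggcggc
Slc5a7, chr17:54299035-54299284: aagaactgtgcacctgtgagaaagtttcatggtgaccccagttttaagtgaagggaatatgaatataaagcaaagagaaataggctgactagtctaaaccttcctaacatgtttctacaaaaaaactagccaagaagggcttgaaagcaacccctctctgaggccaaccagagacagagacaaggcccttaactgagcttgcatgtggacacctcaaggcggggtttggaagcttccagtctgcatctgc
Isl1, chr13:116309690-116309938: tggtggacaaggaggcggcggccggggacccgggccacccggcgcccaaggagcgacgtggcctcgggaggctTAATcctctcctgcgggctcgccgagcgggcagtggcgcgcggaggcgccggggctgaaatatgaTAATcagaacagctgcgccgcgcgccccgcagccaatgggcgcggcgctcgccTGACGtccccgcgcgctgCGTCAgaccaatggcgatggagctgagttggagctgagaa
The Chat stretch held TAAT 0 times and TGACG 1 time, Slc18a3 1 and 1, Slc5a7 0 and 0, and Isl1 2 and 2. In windows from 250 bases before to 50 after a start, TAAT was found for 4 of the 8 genes (Slc18a3, Slc17a8, Isl1 and Gbx2) and in 58% of the 32851 windows used. These leave out 1 chromosome, which holds none of the 8 genes. TGACG was found for 3 of the 8 (Chat, Slc18a3 and Isl1) and in 20.8% of the windows used. A match is a description of the letters and not of binding.

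In wild-type mice Ache was the most abundant of the 8 per length, at 85.3 ± 9.19 TPM (SD, n = 8). It was followed by Chat at 24.0 ± 2.42, Slc5a7 at 21.5 ± 2.09, Isl1 at 14.9 ± 1.07, Slc18a3 at 14.3 ± 1.93, Lhx8 at 11.97 ± 1.72, Slc17a8 at 10.2 ± 0.866 and Gbx2 at 1.36 ± 0.402 TPM. Neighbours in this order were compared within mice by an exact two-sided sign-flip permutation test on log2(TPM + 0.1), with p-values adjusted over the 7 pairs and 0.00781 as the smallest raw p that 8 mice allow. Isl1 and Slc18a3 did not differ beyond their spread (Isl1 higher in 6 of 8 mice, exact adjusted p = 0.297), nor did Lhx8 and Slc17a8 (Lhx8 higher in 6 of 8, exact adjusted p = 0.0638). The order of the means was the same in Msh3-/- mice. In zQ175 mice Isl1, at 18.3 TPM, stood above Slc5a7 at 17.9 and next to Chat at 20.1, and neither neighbouring pair differed beyond its spread (exact adjusted p = 0.797 and 0.164). In zQ175:Msh3-/- mice Isl1 at 18.6 TPM stood above Slc5a7 at 17.0 in 7 of 8 mice (exact adjusted p = 0.0219).

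The effect of the zQ175 allele was measured with Msh3 present (zQ175 against wild-type), without it (zQ175:Msh3-/- against Msh3-/-), and as the average of both. The 2 comparisons have no mouse in common. A gene was called when the adjusted p-value of edgeR's quasi-likelihood test, taken over all 16610 genes, was under 0.05 and the change was at least 1.2-fold. With Msh3 present 2 of the 8 genes were called, Chat and Slc5a7, both lower in zQ175, where 6.89% of all genes tested were called lower. Without Msh3 4 of 8 were called, Chat, Slc5a7, Slc18a3 and Lhx8, again all lower, against 5.96% of all genes. The same 4 were called in the average, against 7.38% of all genes, and the fitted levels were between 79.4% and 81.5% of those in mice without the allele. The median log2 fold change of the 8 genes was -0.24, -0.34 and -0.30 in the 3 comparisons, and that of all genes was 0.012, 0.014 and 0.014. By adjusted p alone 4 of 8 were lower and 1 higher with Msh3 present (13.5% and 13% of all genes), 4 lower and 1 higher without it (12.3% and 11.8%), and 5 lower and 1 higher in the average (18.7% and 20.9%). In RNA from whole tissue, fewer cholinergic interneurons and less RNA per interneuron cannot be told apart. Markers of the basal forebrain and pallidum were also lower with zQ175 (below), and the part of that tissue in these changes was not tested.

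**Figure D1:**
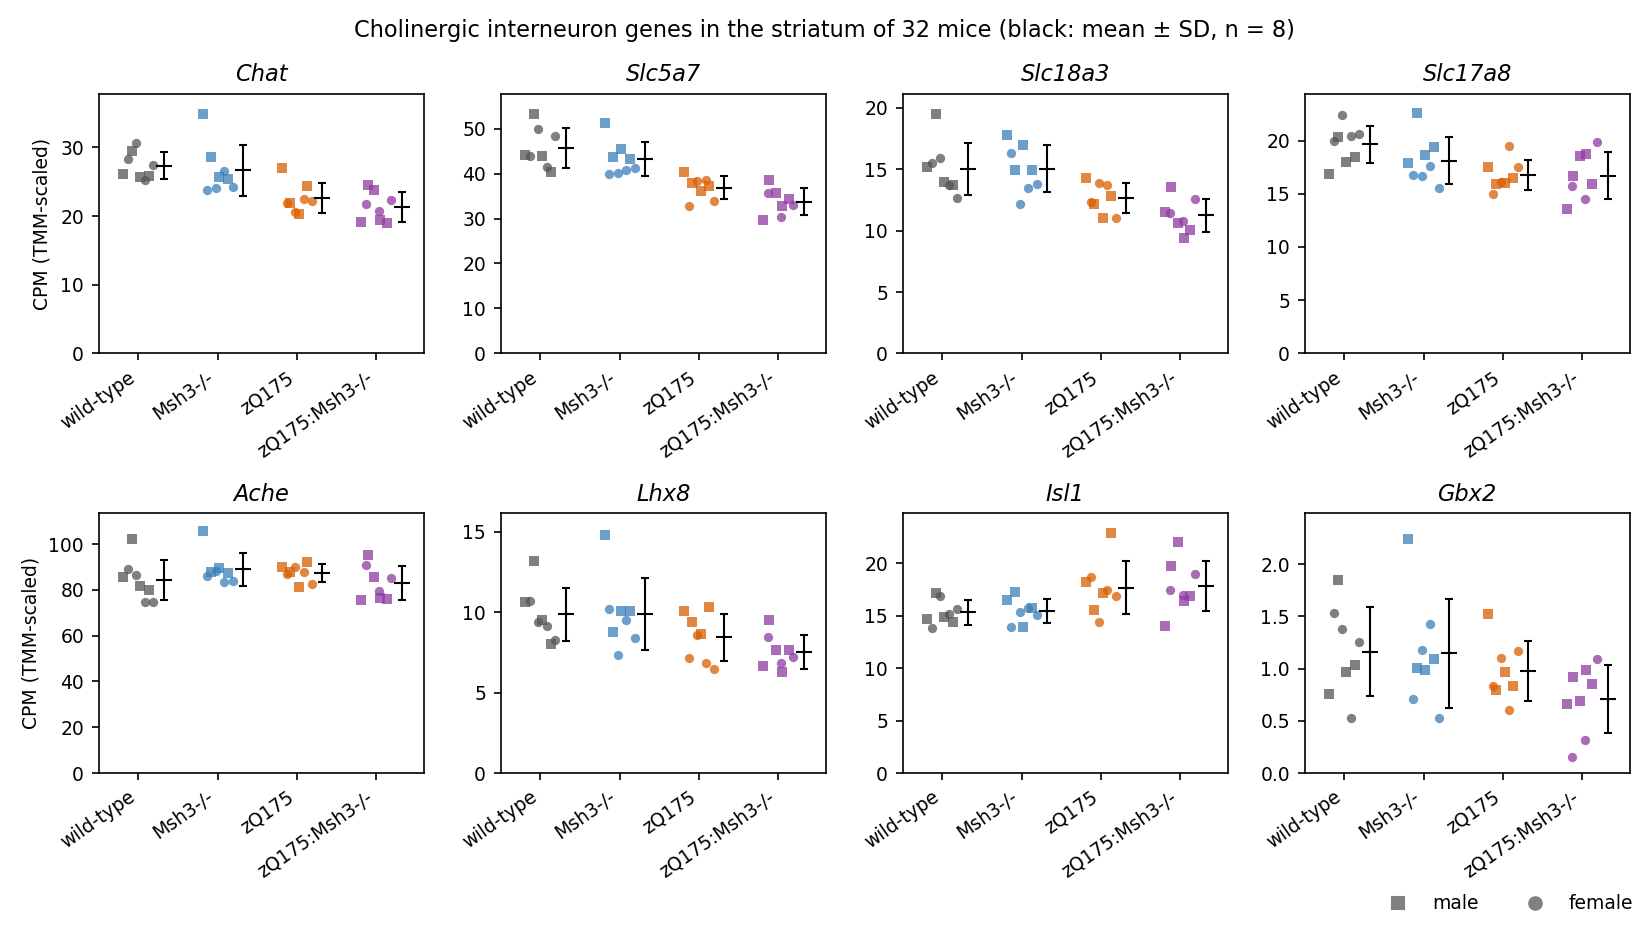
CPM of the 8 genes in each of the 32 mice, by genotype, with squares for males, circles for females and black bars for the mean ± SD of 8 mice. Chat, Slc5a7 and Slc18a3 sit lower in both zQ175 groups, Isl1 sits higher, all zQ175 mice lie within the wild-type range for Ache, and Msh3-/- male 1 is the highest Chat value at 34.9 CPM.

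Chat, the synthesizing enzyme, had a lowest, median and highest level of 25.2, 26.8 and 30.7 CPM in wild-type mice and 20.3, 22.1 and 27.0 in zQ175 mice. The corresponding values were 23.8, 25.6 and 34.9 CPM in Msh3-/- mice and 19.0, 21.3 and 24.6 in zQ175:Msh3-/- mice. In each comparison 7 of 8 mice with the zQ175 allele lay below every mouse of the reference group, and 1 overlapped with it. Chat fell by 0.27 on the log2 scale with Msh3 present (standard error 0.069, adjusted p = 0.00264 from edgeR) and by 0.32 without it (standard error 0.070, adjusted p = 0.000674). In the average it was at 81.5% of the reference level (95% confidence interval 76.0% to 87.3%, adjusted p = 6.64e-06 from edgeR). With the cortex marker level in the model the averaged change was -0.23 (adjusted p = 1.47e-05), which is under 1.2-fold. With Msh3 present, leaving out any 1 of 4 mice (wild-type male 2, wild-type female 2, zQ175 female 2 or zQ175 male 3) also took the change to between -0.25 and -0.26, under 1.2-fold.

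Slc5a7, the high-affinity choline transporter of cholinergic terminals, lay at 40.3, 44.1 and 53.3 CPM (lowest, median, highest) in wild-type mice and at 32.8, 37.6 and 40.4 in zQ175 mice. In Msh3-/- mice it lay at 39.8, 42.2 and 51.2 CPM and in zQ175:Msh3-/- mice at 29.6, 33.6 and 38.5. The wild-type and zQ175 ranges touched only at their ends, with 7 of 8 zQ175 mice below all wild-type mice, and the ranges without Msh3 did not overlap. The share of all genes tested whose ranges do not overlap was not counted for any comparison. Slc5a7 fell by 0.31 with Msh3 present (standard error 0.058, adjusted p = 8.98e-05 from edgeR) and by 0.36 without it (standard error 0.059, adjusted p = 1.61e-05). The averaged change of -0.33 had the smallest adjusted p of the 8 genes (3.41e-08), and with the cortex marker level in the model it was -0.28 (adjusted p = 7.25e-08).

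Slc18a3, the vesicular acetylcholine transporter encoded within the Chat locus, lay at 12.7, 14.6 and 19.5 CPM in wild-type and at 10.997, 12.6 and 14.3 in zQ175 mice (lowest, median, highest). Its levels were 12.2, 14.95 and 17.8 CPM in Msh3-/- and 9.37, 11.1 and 13.5 in zQ175:Msh3-/- mice. All ranges overlapped, with 4 of 8 zQ175 mice below every wild-type mouse and 6 of 8 zQ175:Msh3-/- mice below every Msh3-/- mouse. With Msh3 present its change of -0.25 reached an adjusted p of 0.0225 (edgeR) but not 1.2-fold. Without Msh3 it fell by 0.42 (standard error 0.084, adjusted p = 0.000272), and in the average by 0.33 (adjusted p = 1.97e-05). The averaged value was -0.30 with the cortex marker level in the model (adjusted p = 0.000131).

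Slc17a8, which lets these cells release glutamate alongside acetylcholine, reached 1.2-fold in neither zQ175 comparison. It lay at 16.9, 20.1 and 22.4 CPM in wild-type, 14.9, 16.3 and 19.5 in zQ175, 15.5, 17.7 and 22.6 in Msh3-/- and 13.6, 16.3 and 19.9 in zQ175:Msh3-/- mice (lowest, median, highest). Of the zQ175 mice, 5 of 8 lay below the lowest wild-type mouse, and of the zQ175:Msh3-/- mice 2 of 8 lay below the lowest Msh3-/- mouse. The log2 difference was -0.23 with Msh3 present (adjusted p = 0.0188 from edgeR), -0.12 without it (adjusted p = 0.266) and -0.17 in the average (adjusted p = 0.00778). With the cortex marker level in the model the averaged difference was -0.12 with an adjusted p of 0.0568.

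Ache, which many striatal neurons express besides the cholinergic ones, gave no call. Its lowest, median and highest levels were 74.6, 83.7 and 102 CPM in wild-type, 81.4, 87.9 and 92.3 in zQ175, 83.4, 87.6 and 106 in Msh3-/- and 75.8, 82.1 and 95.3 in zQ175:Msh3-/- mice. The groups overlapped throughout. On counts the log2 difference was 0.05 with Msh3 present (adjusted p = 0.550 from edgeR) and -0.10 without it (adjusted p = 0.200), so the 2 backgrounds differed in sign. The averaged log2 difference was -0.02 on counts (95% confidence interval -0.10 to 0.05, adjusted p = 0.658 from edgeR) and 0.03 on log2(TPM + 0.1), so that its sign depended on the scaling.

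Lhx8, a LIM-homeodomain factor required for the cholinergic fate, lay at 8.04, 9.45 and 13.2 CPM in wild-type and 6.49, 8.62 and 10.3 in zQ175 mice (lowest, median, highest). It lay at 7.33, 9.80 and 14.8 CPM in Msh3-/- and 6.29, 7.44 and 9.48 in zQ175:Msh3-/- mice. The ranges overlapped, with 3 of 8 zQ175 mice below every wild-type mouse and 4 of 8 zQ175:Msh3-/- mice below every Msh3-/- mouse. The difference with Msh3 present was -0.22 (standard error 0.12, adjusted p = 0.176 from edgeR). Lhx8 fell by 0.38 without Msh3 (standard error 0.12, adjusted p = 0.0166) and by 0.30 in the average (adjusted p = 0.00401). Male replicate 1 of the Msh3-/- group held the highest Lhx8 level of all mice, and without it the value against Msh3-/- was -0.28 with an adjusted p of 0.0558, and the averaged one -0.25 with an adjusted p of 0.00732. With the cortex marker level in the model the averaged change was -0.23 (adjusted p = 0.0209).

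Isl1, the partner of Lhx8 in specifying cholinergic neurons, was the 1 gene of the 8 that was higher by adjusted p. Its lowest, median and highest levels were 13.9, 15.03 and 17.2 CPM in wild-type, 14.4, 17.4 and 23.0 in zQ175, 13.9, 15.6 and 17.3 in Msh3-/- and 14.03, 17.2 and 22.002 in zQ175:Msh3-/- mice. The ranges overlapped, with 5 of 8 zQ175 mice above every wild-type mouse and 4 of 8 zQ175:Msh3-/- mice above every Msh3-/- mouse. The log2 difference was 0.21 with Msh3 present (adjusted p = 0.0413 from edgeR), 0.20 without it (adjusted p = 0.0487) and 0.21 in the average (adjusted p = 0.00247), each under 1.2-fold. In the fit with the cortex marker level it was 0.28, 0.30 and 0.29 (adjusted p = 3.47e-05, 2.57e-05 and 4.10e-08), past both thresholds, and so it was in the average on log2(TPM + 0.1), where it was also 0.29. The TPM scale raised genes in general, with a median averaged log2 difference of 0.08 over all genes, against 0.014 on counts.

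Gbx2, a homeodomain factor of the developing cholinergic interneuron, was close to the limit of detection, at 2 to 32 counts per mouse. It lay at 0.530, 1.15 and 1.84 CPM in wild-type, 0.606, 0.900 and 1.52 in zQ175, 0.527, 1.05 and 2.24 in Msh3-/- and 0.152, 0.772 and 1.09 in zQ175:Msh3-/- mice (lowest, median, highest). All groups overlapped. The averaged log2 difference of -0.46 had a 95% confidence interval of -0.86 to -0.07 and an adjusted p of 0.0556 from edgeR, so a difference was not established at this depth.

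**Figure D2:**
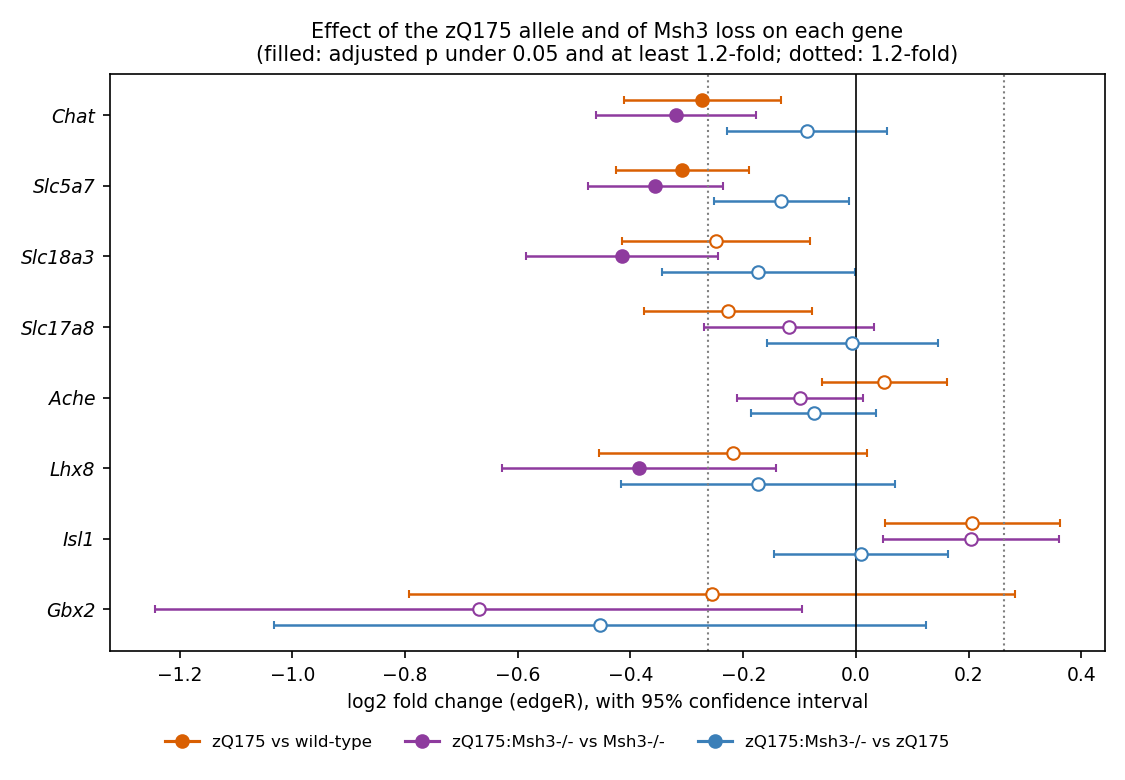
Log2 fold changes of the 8 genes from edgeR with 95% confidence intervals, for the zQ175 effect with and without Msh3 and for Msh3 loss in zQ175 mice. Filled points pass both thresholds, and dotted lines mark 1.2-fold. Chat and Slc5a7 are filled in both zQ175 comparisons, and no point for Msh3 loss is filled.

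Loss of Msh3 gave no call among the 8 genes. Between Msh3-/- and wild-type mice edgeR called 0 of 8 (0 at an unadjusted p under 0.05, which 5.09% of all genes had, and 0 by DESeq2 and by limma), where 0.00602% of all genes, 1 gene, was called. The log2 differences ran from -0.11 for Slc17a8 to 0.07 for Ache. Between zQ175:Msh3-/- and zQ175 mice 0 of 8 were called by edgeR, DESeq2 or limma, again against 0.00602% of all genes. An unadjusted p under 0.05 was reached by 3.7% of all genes and by 2 of the 8, Slc5a7 (log2 difference -0.13, 95% confidence interval -0.25 to -0.01) and Slc18a3 (-0.17, interval -0.34 to -0.002), with an adjusted p of 0.999 from edgeR for each. For Chat the difference was -0.09 (interval -0.23 to 0.05). The zQ175 effects with and without Msh3 were compared by the interaction term, which called 0 of 8 and 0% of all genes (0 of the 8 and 4.44% of all genes at an unadjusted p under 0.05, with 0 members and 0 genes called by DESeq2). The interval of that difference was -0.25 to 0.15 for Chat, -0.22 to 0.12 for Slc5a7 and -0.41 to 0.07 for Slc18a3.

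Against wild-type mice, the zQ175:Msh3-/- group had 4 of 8 genes called, all lower, where 6.49% of all genes were called lower. It shares its wild-type mice with the first comparison and its zQ175:Msh3-/- mice with the second. Chat was lower by 0.36 (adjusted p = 0.000128 from edgeR), Slc5a7 by 0.44 (2.80e-07), Slc18a3 by 0.42 (0.000188) and Lhx8 by 0.39 (0.0124) on the log2 scale. The ranges of Chat and of Slc5a7 did not overlap between these groups, and the share of all genes without overlap was not counted. By adjusted p alone 5 of 8 were lower and 1, Isl1, was higher, against 13.6% and 13.3% of all genes.

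With genotype in the model the log2 difference of females from males was negative for all 8 genes, as for 8135 of all 16610. For Slc17a8 it was only -0.002. Of the 8 genes 0 were called by edgeR, where 0.169% of all genes were. Among wild-type mice the means of Chat, Slc5a7, Slc17a8, Isl1 and Gbx2 were higher in females, and those of Slc18a3, Ache and Lhx8 lower. Of the 8, 1 had an unadjusted p under 0.05, as had 9.31% of all genes, and this was Lhx8 (log2 difference -0.22, adjusted p = 0.301 from edgeR). The averaged zQ175 effect did not differ between the sexes in any of the 8 by the test of that difference (0 called of 8 and 0% of all genes, smallest adjusted p = 0.912 from edgeR; 0 of the 8 and 5.1% of all genes at an unadjusted p under 0.05). In the males alone the Chat difference between zQ175 and wild-type was -0.19 (adjusted p = 0.303) and in the females alone -0.36 (adjusted p = 0.000644). Without Msh3 the order was the other way, with -0.44 in males (adjusted p = 0.00854) and -0.19 in females (adjusted p = 0.103).

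Other genes known from cholinergic neurons were also lower, in a list chosen with earlier results of these data known. Its counts are therefore a description and not a separate test. Of 8 such genes, among them Ngfr, Slc10a4, Ecel1 and Tacr1, all 8 had negative averaged log2 differences, 7 with an adjusted p under 0.05, against 18.7% of all genes that were lower by this measure, and 2 passed both thresholds, against 7.38%. Tacr1, the substance P receptor carried by striatal cholinergic interneurons, fell from 34.7 ± 3.05 CPM in wild-type to 27.6 ± 2.27 in zQ175 mice (SD, n = 8), a log2 change of -0.33 (adjusted p = 7.39e-05 from edgeR), and had 32.4 ± 2.21 and 27.3 ± 2.99 CPM in Msh3-/- and zQ175:Msh3-/- mice. Ngfr, the low-affinity neurotrophin receptor of basal forebrain cholinergic neurons, fell by 0.58 in the average (adjusted p = 0.0107). With Msh3 present only Tacr1 was called among these 8. The median averaged log2 difference was -0.24.

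Genes of choline and acetylcholine metabolism beyond the 8 did not share 1 direction. Of 17 such genes 15 were tested, and 3 rose and 1 fell in the average, against 6.32% and 7.38% of all genes, with a median of 0.06. Prima1, the protein that anchors acetylcholinesterase in the membrane, fell from 12.9 ± 1.43 CPM in wild-type to 8.11 ± 0.583 in zQ175 mice (SD, n = 8), a log2 change of -0.67 (adjusted p = 5.01e-10 from edgeR). Chdh, which oxidizes choline in mitochondria, rose from 10.5 ± 0.868 to 18.4 ± 2.62 CPM (log2 change 0.80). The averaged log2 changes were 0.33 for Pcyt1b, an enzyme of phosphatidylcholine synthesis, and 0.31 for Slc44a5, a choline transporter-like protein. Slc44a3 and Slc44a4 were below the count filter, at no more than 6 counts.

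Of 18 acetylcholine receptor genes 13 were tested, and 4 fell and 1 rose in the average, with a median of -0.17, against the same shares of all genes. Chrm4, the inhibitory M4 muscarinic receptor abundant in direct-pathway spiny neurons, ranged from 40.5 to 60.1 CPM in wild-type and from 27.5 to 33.9 in zQ175 mice, a log2 change of -0.74 (adjusted p = 1.03e-10 from edgeR). These ranges did not overlap, and the share of all genes without overlap was not counted. The nicotinic subunits Chrna7 and Chrna4 fell by 0.45 and 0.37 in the average, and Chrm5, at 1 to 22 counts, by 0.95. The 1 receptor gene that rose was Chrna5 (0.53, adjusted p = 0.0413), at 0 to 29 counts, named after its value was seen. Chrm2, an autoreceptor of cholinergic neurons that was named for this role, had an averaged difference of 0.00 (adjusted p = 0.964). Chrna1, Chrna6, Chrna9, Chrna10 and Chrnb3 were below the count filter.

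Markers of other striatal neurons are given for scale. Of 9 spiny neuron markers 8 fell in the average, with a median log2 change of -0.80, among them Penk (-1.34), Adora2a, Pde10a and Ppp1r1b (-0.82). Of 9 markers of GABAergic interneurons 2 fell, Th (-0.35) and Pthlh (-0.35), 5 were lower by adjusted p alone, and the median was -0.16. For both lists the shares of all genes were 7.38% called lower in the average and 18.7% lower by adjusted p alone. None of the differences between these lists was tested.

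**Figure D3:**
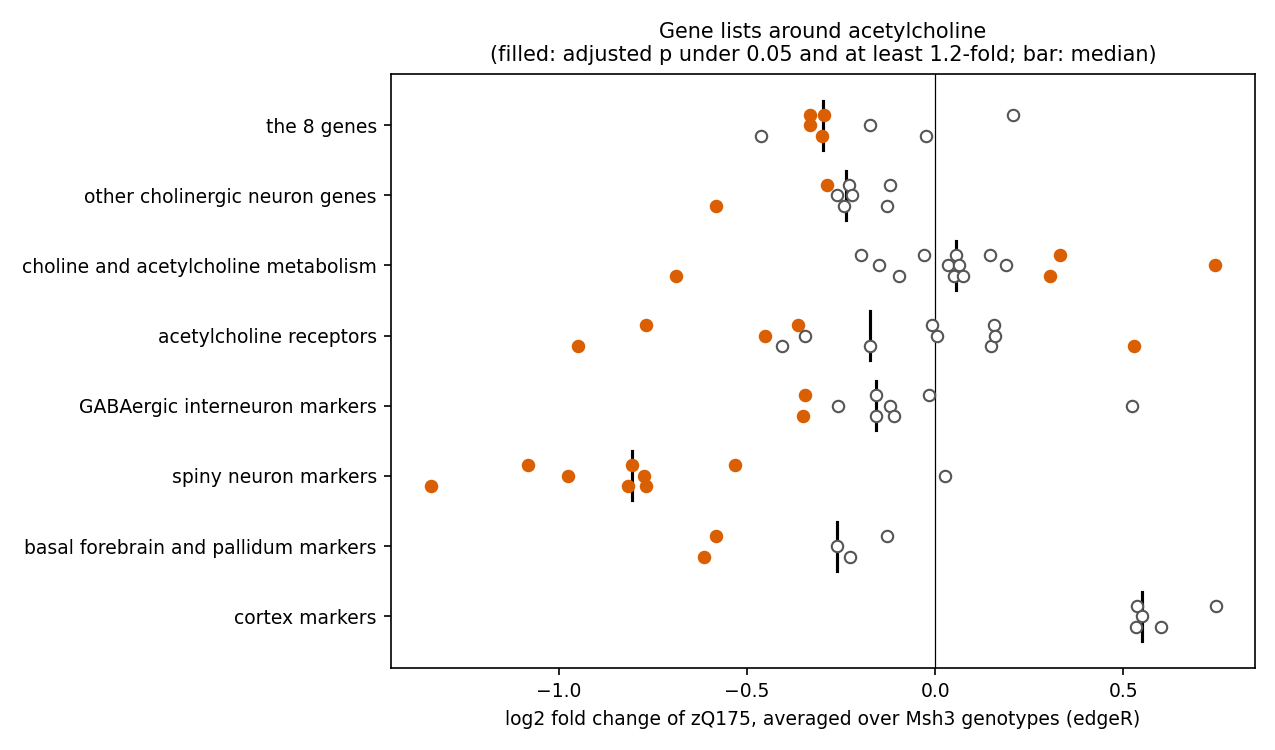
Averaged zQ175 log2 fold change of each tested gene in 8 lists (points, from edgeR), with the median of each list as a bar and filled points for genes past both thresholds. The 8 genes have a median of -0.30, the spiny neuron markers one of -0.80 and the cortex markers one of 0.55 with no filled point.

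Levels of 5 of the 8 genes, Isl1, Chat, Slc5a7, Slc17a8 and Ache, were lower in mice with more cortex marker RNA, by an adjusted Pearson p under 0.05. The share of all genes tested with such a relation was not counted, so these numbers do not set the 8 genes apart. After genotype means were subtracted, the log2 cortex sum correlated over 32 mice with Isl1 (Pearson r = -0.83, Spearman rho = -0.88, permutation p adjusted over 24 relations 0.00012 and 8e-05), Chat (r = -0.71, rho = -0.70, 0.00024 and 8e-05) and Slc5a7 (r = -0.61, rho = -0.60, 0.00112 and 0.00272). For Slc17a8 r was -0.51 (rho = -0.61, permutation p adjusted 0.0108 and 0.00272) and for Ache -0.49 (rho = -0.42, 0.0115 and 0.0517). For Slc18a3 r was -0.28 (rho = -0.18, permutation p adjusted 0.232 and 0.475), for Lhx8 -0.40 (rho = -0.22, 0.0735 and 0.395) and for Gbx2 -0.35 (rho = -0.42, 0.0953 and 0.0517). Without the 2 mice farthest from the median r was -0.76 for Isl1, -0.74 for Chat, -0.74 for Slc5a7, -0.52 for Slc17a8 and -0.55 for Ache. In males alone r was -0.89, -0.69, -0.56, -0.51 and -0.69 for these 5 genes, and in females alone -0.68, -0.50, -0.55, -0.35 and 0.05, so that the relation of Ache was not seen in females. None of the 5 cortex markers was called in a zQ175 comparison, and their median averaged log2 difference was 0.55. With the cortex level as a covariate, edgeR called 1 of 8 genes with Msh3 present (Isl1), 4 without it (Slc5a7, Slc18a3, Lhx8 and Isl1) and 3 in the average (Slc5a7, Slc18a3 and Isl1), against 11.5%, 10.3% and 13% of all genes called in either direction. By adjusted p alone it was 5 of 8 in each, against 26.8%, 23.6% and 38.1% of all genes. The choroid plexus sum had no adjusted p under 0.05 with any of the 8, and as a covariate it left the numbers called at 2, 4 and 4, against 12%, 11.2% and 14.1% of all genes.

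**Figure D4:**
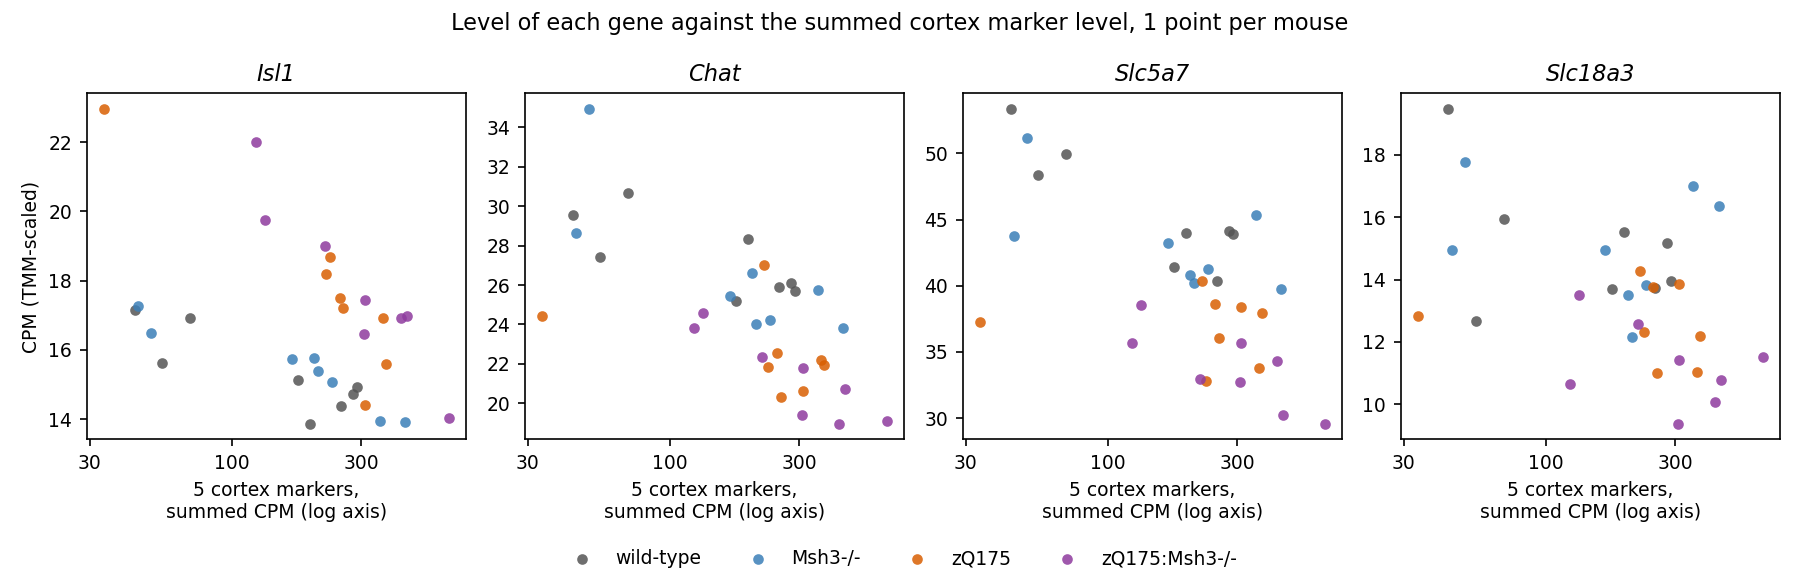
CPM of Isl1, Chat, Slc5a7 and Slc18a3 against the summed CPM of 5 cortex markers (log axis), with 1 point per mouse coloured by genotype. Isl1, Chat and Slc5a7 decline with the cortex sum within genotypes (r = -0.83, -0.71 and -0.61 after genotype means were subtracted), and with the cortex level in the model the averaged zQ175 difference is 0.29 for Isl1 and -0.28 for Slc5a7.

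Markers of the basal forebrain and pallidum, where cholinergic neurons are dense, moved with 6 of the 8 genes in the other direction, by an adjusted Pearson p under 0.05. For this sum, too, the share of all genes tested was not counted. The summed level of Gbx1, Ngfr, Nkx2-1, Lhx6 and Zic1 correlated with Ache (r = 0.85, rho = 0.76, permutation p adjusted over 24 relations 0.00012 and 8e-05) and Lhx8 (r = 0.76, rho = 0.65, 0.00024 and 0.00072), and r was 0.73 and 0.60 without the 2 farthest mice. For the genes called lower with zQ175, it correlated with Chat (r = 0.66, rho = 0.55, permutation p adjusted 0.00127 and 0.00615), Slc5a7 (r = 0.62, rho = 0.44, 0.00216 and 0.0452) and Slc18a3 (r = 0.65, rho = 0.59, 0.000528 and 0.00295) as well. These became 0.50, 0.40 and 0.50 without the 2 farthest mice, were 0.79, 0.82 and 0.70 in males alone, and were 0.31, 0.35 and 0.54 in females alone. For Isl1 r was 0.40 (rho = 0.36, permutation p adjusted 0.0412 and 0.106) and -0.17 in females alone, for Gbx2 0.27 and for Slc17a8 -0.01. It ranged from 58.3 to 84.8 CPM in wild-type, 59.9 to 91.9 in Msh3-/-, 52.1 to 65.7 in zQ175 and 44.9 to 63.5 in zQ175:Msh3-/- mice. All 5 markers were lower in the average by adjusted p, against 18.7% of all genes. Of these markers Gbx1 (-0.61) and Ngfr passed both thresholds, against 7.38%. Nkx2-1 and Lhx6 are also expressed by striatal interneurons, and 3 of the 5 are in the list of other cholinergic neuron genes. The part of this tissue in the lower levels of Chat, Slc5a7, Slc18a3 and Lhx8 was not tested. Of 6 thalamus markers, Prkcd (-0.48) was called in the average and Lef1 (-0.28) with Msh3 present, and 0 of the 4 tested medial habenula markers were called. Of 4 astrocyte, 4 oligodendrocyte and 4 microglia markers, 0 were called in the average, and 3, 1 and 3 were lower by adjusted p alone. Of all genes, 7.38% were called lower and 6.32% higher in the average, and 18.7% were lower by adjusted p alone. With Msh3 present 6.89% of all genes were called lower.

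Several of the 8 genes varied together from mouse to mouse within genotypes. Of 28 pairs, 17 had an adjusted permutation p under 0.05 by Pearson's r and 18 by Spearman's rho, and r ranged from -0.01 to 0.78 with a median of 0.43. The pairs share their libraries and so are not independent of each other. By Pearson's r, Gbx2 passed in 1 of its pairs and Slc17a8 in 3. Only Chat was set against all genes tested, and pairs without Chat have no such comparison. The pairs of Chat with Slc17a8 and with Gbx2 passed (permutation p adjusted 0.0416 and 0.0379). Yet these 2 genes ranked only 728 and 689 in likeness to Chat, so passing does not set a pair apart from other genes. The highest values were Slc18a3 with Ache (r = 0.78, rho = 0.74, permutation p adjusted 0.00014 for both) and Ache with Lhx8 (r = 0.75, rho = 0.66, 0.000187 and 0.00063). Chat and Slc5a7 had an r of 0.71 (rho = 0.64, permutation p adjusted 0.00028 and 0.0014). Slc17a8 and Lhx8 had an r of -0.01 (rho = -0.04). Without Msh3-/- male 1 15 pairs passed. Without the 2 mice farthest from the median of the first gene of a pair, 11 pairs passed, with an r of 0.78 for Slc18a3 with Ache and 0.61 for Chat with Slc5a7. Among the 17 males 14 pairs passed and among the 15 females 0, where 23 of 28 were positive, and Chat with Slc5a7 had an r of 0.77 and 0.43, a difference that was not tested. Once the cortex sum was removed 10 pairs passed, and the r of Chat with Isl1 went from 0.64 to 0.14. Chat, Slc5a7, Slc18a3 and Lhx8 were all above their genotype means in 6 mice and all below in 9.

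**Figure D5:**
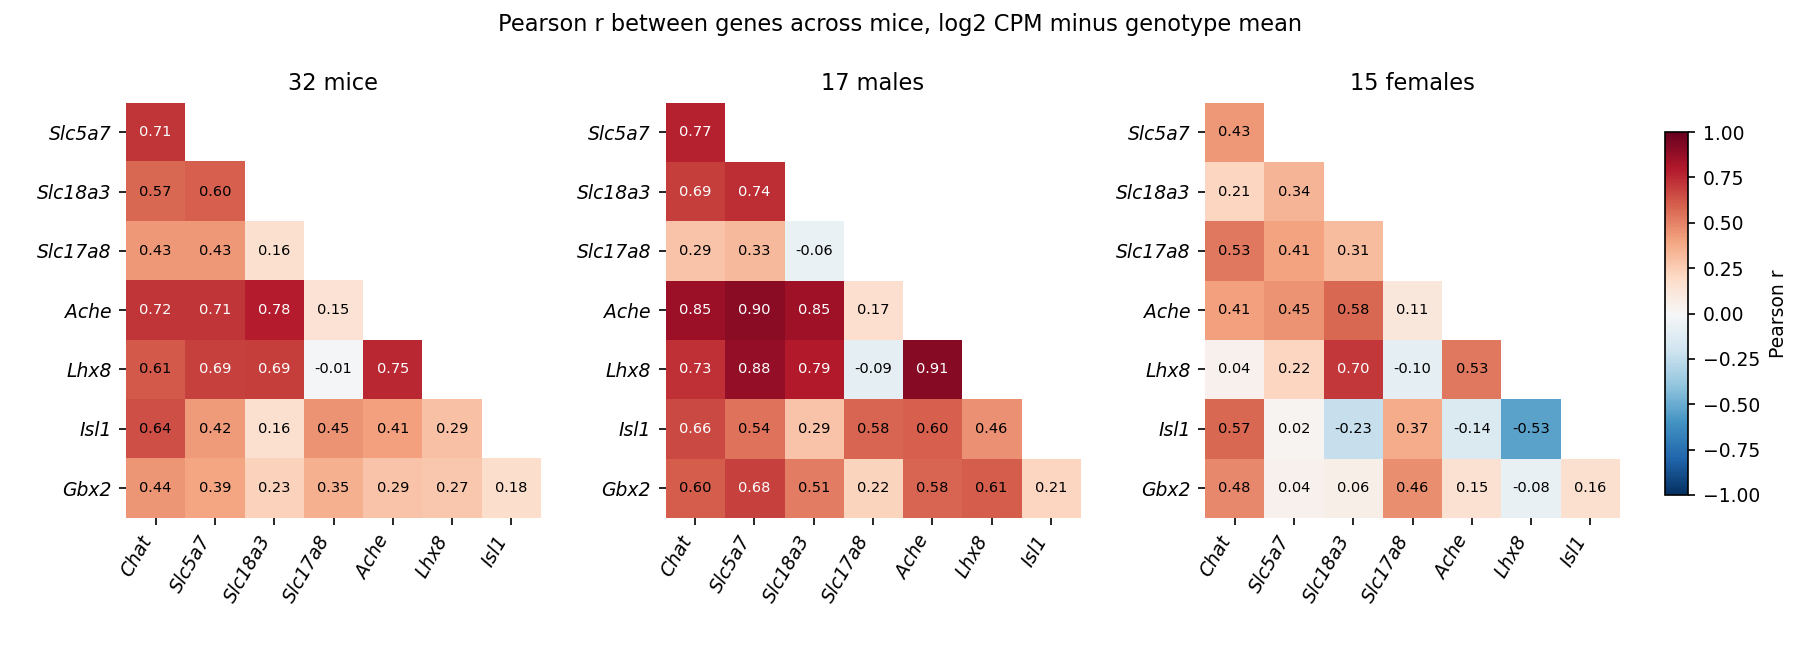
Pearson r between the 8 genes across mice, computed on log2 CPM after subtracting genotype means, for all 32 mice, the 17 males and the 15 females. Values reach 0.78 in all mice for Slc18a3 with Ache, are higher in males than in females for most pairs, and are near 0 for Slc17a8 with Lhx8.

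A few mice stood at the end of their group for several genes. Male 1 of the Msh3-/- group was the highest of its group for 6 of the 8 genes, with a basal forebrain and pallidum sum of 91.9 CPM, the highest of its group, and a cortex sum of 50.5 CPM, the second lowest. Wild-type male 2 was highest for 6, with corresponding sums of 84.8 and 43.8 CPM. Male 1 of the zQ175:Msh3-/- group was lowest for 4 of the 8, with sums of 44.9 and 630 CPM. Without Msh3-/- male 1, 2 of 8 genes instead of 4 were called between zQ175:Msh3-/- and Msh3-/- mice, Slc5a7 (-0.32) and Slc18a3 (-0.38), while Chat was at -0.26 with an adjusted p of 0.00231 from edgeR.

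Outside the list, the 5 genes whose log2 CPM followed Chat most closely over the 32 mice, after subtraction of genotype means, were Slc10a4 (r = 0.82), Ecel1 (0.81), Slc32a1 (0.80), Ddx23 (0.76) and Aarsd1 (0.76). Slc10a4 is a vesicle protein of cholinergic and monoaminergic neurons, Ecel1 a membrane endopeptidase and Slc32a1 the vesicular GABA transporter. Among all genes tested, Ache ranked 10 and Slc5a7 11 in likeness to Chat, while Slc18a3, which shares its locus, ranked 135. Isl1 ranked 51, Lhx8 72, Gbx2 689 and Slc17a8 728. In the average Slc10a4 differed by -0.24 (adjusted p = 0.00589 from edgeR) and Ecel1 by -0.23 (adjusted p = 0.00278), both under 1.2-fold, and Slc32a1 by -0.04 (adjusted p = 0.328).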

How the data were processed

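Poly(A)-selected RNA from the striata of 32 mice was sequenced by the authors as paired-end reads. Deposited by the authors were raw counts for each gene and a second table on the TPM scale, normalized for length and depth. That table is named for FPKM, but its columns sum to the same total, so it was treated as TPM. The build is GRCm38.p6 per the submitters' processing notes. The aligner, the counting program and its use of strand are not given in the sources used here. Columns were matched to mice by mouse number, and groups were taken from the labels.

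Counts were tested with edgeR 4.0.16 in R 4.3.3 (TMM, filter on low counts over the 4 genotypes, robust quasi-likelihood fit, 1 model of 4 genotypes), with Benjamini-Hochberg adjusted p under 0.05 and at least 1.2-fold required. Biological variation between mice had a common coefficient of 0.0985. Alternatives were DESeq2 1.42.0 without independent filtering, RLE scaling, no filter, sex in the model, only the groups compared, a replicate block, limma 3.58.1 on TPM values (log2 with a pseudocount of 0.1 or 1, and genes averaging 0.1 TPM or more, or all genes), each sex alone, other thresholds and leaving out each mouse. These TPM fold changes understate those of low genes. Co-variation used log2 CPM (prior count 2) minus genotype means and 100000 permutations within genotype, with 1e-05 as the smallest p they can give. The methods were tested on simulated data. Summaries and plots were made in Python 3.11.15 (numpy 2.4.6, pandas 2.3.3, scipy 1.17.1, matplotlib 3.10.9). Fits with the cortex or choroid plexus level, and co-variation without 1 mouse or the cortex level, were chosen after seeing the data.

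The 8 genes and all lists were chosen with earlier results of these data known. Single values of some listed genes are not reported here. From each list the genes named are those past both thresholds in zQ175 against wild-type or in the average, at most 4 per list. Chrna5, Chrm2 and markers given as members of a list were named outside this rule, with their values known, and the 5 genes most like Chat by their correlation with it. Of 54532 gene identifiers 54409 were named from the name table.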

Additional observations from a re-analysis of the deposited data

Results flagged for a closer look

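In each of the 4 genotypes the highest and lowest of the 8 mice were compared with their neighbours for each of the 8 genes, by the ratio of the gap to the range of log2 CPM. Of 32 groups 2 held a mouse that stood apart, and chance marks about 1 in 20. Both were the Msh3-/- male 1. For Ache it lay at 106 CPM, with the next mouse at 89.5 and a ratio of 0.701. For Lhx8 it lay at 14.8 CPM, with the next at 10.2 and a ratio of 0.529. This mouse also held the highest basal forebrain and pallidum marker sum of its group (91.9 CPM). Its part in the Lhx8 result is given by the fit without it, in which the averaged zQ175 difference was -0.25 (adjusted p = 0.00732 from edgeR). Ache was at -0.004 in the average without it (adjusted p = 0.950).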

How the results depend on the processing

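Numbers below are how many of the 8 genes were called. Under the alternatives listed no result changed its direction while called. Between zQ175 and wild-type mice (2 called) the number was 1 with limma on log2(TPM + 1), 0 in males alone, 4 in females alone, 5 by adjusted p alone, 0 at 1.5-fold and 1 with the cortex covariate, and 1 to 3 when each mouse was left out. Chat fell just under 1.2-fold there without wild-type male 2 (-0.26), wild-type female 2 (-0.25), zQ175 female 2 (-0.26) or zQ175 male 3 (-0.25), and Slc18a3 passed 1.2-fold without any 1 of wild-type male 4, female 3 and female 4 and zQ175 male 1, female 2 and female 3 (-0.26 to -0.28). Without Msh3 (4 called) the number was 2 with limma on log2(TPM + 1), 1 in females alone, 0 at 1.5-fold and 2 to 5 with each mouse left out, the 2 without Msh3-/- male 1. Gbx2 was called there without Msh3-/- female 4 (-0.79). In the average (4 called) it was 2 with limma on log2(TPM + 0.1), with or without a filter, 1 on log2(TPM + 1), 0 at 1.5-fold and 3 to 5 with each mouse left out. Gbx2 was called in the average without any 1 of wild-type male 1 and female 3, Msh3-/- female 1 and female 4, zQ175 male 1, and zQ175:Msh3-/- male 2, male 4 and female 3 (-0.49 to -0.53). Against wild-type, zQ175:Msh3-/- gave 0 at 1.5-fold and 4 to 6 with each mouse left out, with Gbx2 called without wild-type male 1 or female 3 or zQ175:Msh3-/- female 3 or male 4, and Slc17a8 without wild-type male 1 or zQ175:Msh3-/- female 3. The 17 pairs that varied together became 11 without the 2 farthest mice, 0 in females alone and 10 with the cortex sum removed. The cause of these changes was not tested, apart from the higher thresholds and smaller groups themselves. Over all genes, 1.5-fold left 538, 503, 511 and 568 calls in the 4 zQ175 comparisons in the order of the text, adjusted p alone gave 4398, 4002, 6570 and 4469 against 1925, 1768, 2276 and 1992, males alone gave 1180 between zQ175 and wild-type, 1244 between zQ175:Msh3-/- and wild-type and 3 between Msh3-/- and wild-type, and females alone gave 1067 between zQ175:Msh3-/- and Msh3-/-. The share of higher genes among those called was 40.6%, 44.0%, 46.1% and 45.9% on counts and 59.9%, 68.6%, 66.4% and 69.4% on TPM.

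Same-numbered mice of 2 genotypes did not deviate together, since 8 of 37 pairs had a correlation over 0.1 (r from -0.19 to 0.27), so the numbers were not taken as pairs. With the replicate block the numbers called were 2, 4, 4 and 4 in the zQ175 comparisons and 0 for Msh3 loss in either background and for the interaction. Genes with few counts, such as Gbx2 at 2 to 32 per mouse, limit what the depth can show.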
